A study of Mus musculus with 37 samples.

Results

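The genes described here are 10 regulators of meiotic arrest and resumption in the mouse oocyte: Ccnb1, Ccnb2, Ccnb3, Cdk1, Wee2, Cdc25b, Gpr3, Pde3a, Mos and Fbxo43. They were chosen by name for their roles, from 29296 genes listed in any of 4 RNA-seq tables. The choice was made with earlier results of these data known, so counts beside all genes describe the set and do not test it. All 10 were listed in every table and all 10 passed the filter on low values in every table, so each has a value and a test in each comparison.

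A fully grown oocyte waits at the germinal vesicle (GV) stage, in prophase of the first meiotic division, until ovulation. Gpr3, a receptor that activates Gs, keeps cyclic AMP high, and Pde3a, a phosphodiesterase, breaks cyclic AMP down when arrest is lifted. Cyclic AMP acts through protein kinase A on Wee2, the oocyte kinase that phosphorylates and inhibits Cdk1, and on Cdc25b, the phosphatase that removes those phosphates. Cdk1 bound to a B-type cyclin (Ccnb1 or Ccnb2, with Ccnb3 acting at the exit from the first division) then drives entry into meiosis. Mos, which starts the MAP kinase cascade, and Fbxo43 (Emi2), an inhibitor of the anaphase-promoting complex (APC/C), hold the egg at metaphase of the second division until it is activated. The oocyte stores these mRNAs and much of their control is at translation, which RNA-seq does not measure.

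Expression was compared within 4 pairs of groups, all on a C57BL/6 background. ZH mice carry a floxed allele of Hira, the histone H3.3 chaperone, and CabZ mice a floxed allele of Cabin1, a subunit of the same complex. In both lines Zp3-Cre, which is expressed in the growing oocyte, deletes exons of the target, and Het mice are Zp3-Cre carriers with 1 floxed and 1 wild-type allele, so that the controls carry Cre as well. The groups were 4 ZH Het and 4 ZH KO libraries of GV oocytes, 4 CabZ Het and 4 CabZ KO libraries of GV oocytes, 4 CabZ Het and 4 CabZ KO libraries of 2-cell embryos, and 2-cell embryos from wild-type oocytes that were injected with GFP (4 libraries) or Zscan4d RNA (3 libraries, labelled Zscan4 OE), matured in vitro and activated without sperm. Females had been superovulated. Their ages, and whether the sequenced CabZ 2-cell embryos came from fertilisation or activation, are not given in the sources used here. The methods describe each RNA library as a pool of 10 oocytes, whereas the protocol in the labels speaks of cells taken individually. Nothing says that the libraries came from separate females, so the p-values measure the spread between these libraries. Chromatin accessibility was measured by ATAC-seq in 3 CabZ Het and 3 CabZ KO pools of GV oocytes. If libraries are pools, fewer oocytes with a transcript and less transcript per oocyte cannot be told apart.

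Values are RPM, read numbers scaled to the size of the library, and a gene was past the test where limma on log2(RPM + 1) gave a Benjamini-Hochberg adjusted p under 0.05 over all genes tested in its table. A fold change is a difference of group means on that log2 scale, which understates changes of low genes. Genes past the test with a fold above 2 are called differentially expressed (DE), as the study's thresholds have it. The tables were normalised separately and no test was made between them.

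Libraries held between 5815763 and 21840179 reads on genes, and the fewest were in the CabZ KO 2-cell embryos (5815763 to 6332675, compared with 7938656 to 8236233 in Het). All 10 oocyte markers, among them Zp3, Gdf9 and Nlrp5, were present in every table, whereas markers of cumulus and granulosa cells summed to 28.7 to 34.2 RPM in ZH Het and 22.7 to 55.0 in ZH KO (2 of 4 tested were higher, Fshr and Inha), 41.5 to 56.9 and 83.4 to 129 in CabZ Het and KO GV oocytes (2 of 3 higher), and 8.66 to 17.9 and 51.6 to 69.6 in CabZ Het and KO 2-cell embryos (4 of 4 higher). Inha in ZH, Fshr in both CabZ comparisons and Fst in CabZ 2-cell embryos were under 1 RPM in Het. They were tested only because KO was high. Without them 1 of 3, 1 of 2 and 2 of 2 were higher, beside 27.4%, 9.31% and 25.5% of all genes. Amh, a granulosa marker, was listed in no table. Cabin1 RNA was 10.5 to 18.8 RPM in CabZ Het and 1.48 to 5.70 in CabZ KO GV oocytes (adjusted p = 0.00108), and lower in the 2-cell embryos as well (adjusted p = 0.0184). It was also lower in ZH KO than in ZH Het GV oocytes (adjusted p = 6.17e-05 by limma). A fall of Cabin1 RNA is thus not particular to the CabZ label. Hira was under 1.10 RPM in every ZH library of either genotype, too low to check the ZH labels. Zscan4d was 332 to 711 RPM in GFP embryos and 336 to 403 RPM in the embryos labelled Zscan4 OE (adjusted p = 0.403), so Zscan4d RNA in these libraries did not set the label apart from GFP. Other measurements of the overexpression are not analysed here.

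Of the 10 regulators, 6 were lower and 0 higher in ZH KO than in ZH Het GV oocytes, where 26.3% of the 13709 genes tested were lower and 27.4% higher. In CabZ KO GV oocytes 2 were lower and 0 higher, beside 5.55% and 9.31% of 13589 genes. In CabZ KO 2-cell embryos 4 were lower and 3 higher, beside 19.2% and 25.5% of 17530 genes. None was past the test between the embryos labelled Zscan4 OE and GFP, where 0.675% of 11550 genes were lower and 0.0606% higher; there, 1902 genes had an unadjusted limma p under 0.05 and none of the 10 was among them. The median log2 fold change of the 10 was -0.97 in ZH GV oocytes (all genes tested, -0.04), -0.10 in CabZ GV oocytes (all genes, -0.00), 0.16 in CabZ 2-cell embryos (all genes, 0.18) and 0.24 in the injected embryos (all genes, 0.10).

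**Figure D1:**
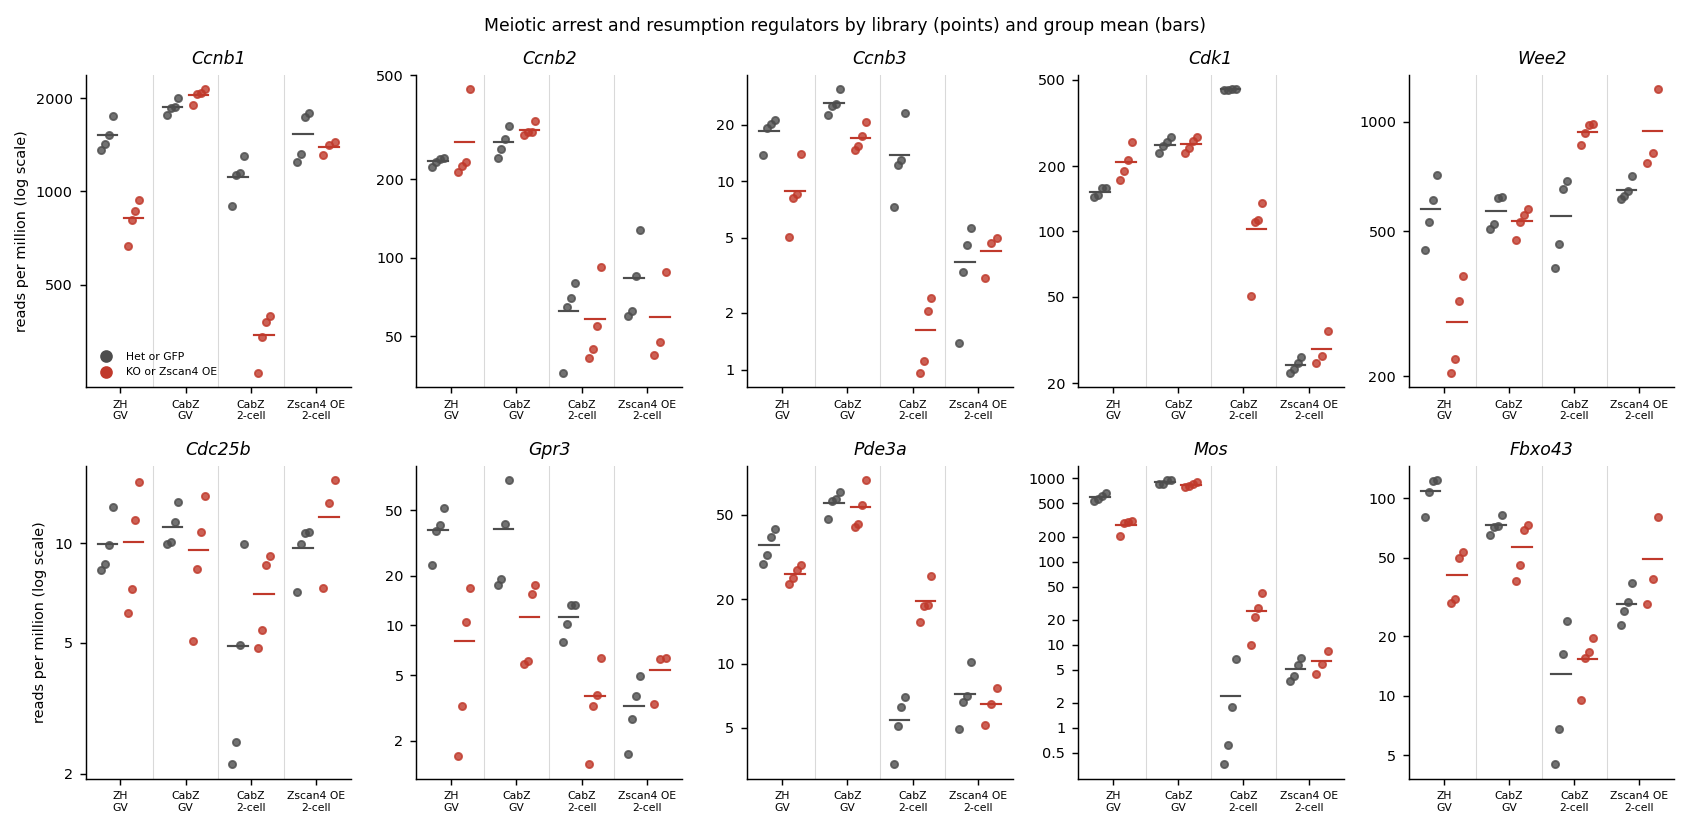
RPM on a log scale for each of the 10 genes in the 31 RNA-seq libraries, with grey points for Het or GFP libraries, red points for KO or Zscan4 OE libraries and bars for group means. Ccnb1, Wee2, Mos and Fbxo43 separate the genotypes in ZH GV oocytes but not in CabZ GV oocytes, and Cdk1 drops from 446 to 454 RPM in Het to 50.4 to 136 RPM in CabZ KO 2-cell embryos.

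Levels were ordered within a group after dividing RPM by the length of the spliced transcript in kb. In ZH Het GV oocytes Ccnb1 was highest, at 609 ± 70.3 RPM per kb (SD, n = 4), followed by Mos at 412 ± 40.6, Wee2 at 199 ± 39.8, Ccnb2 at 153 ± 5.07 and Cdk1 at 34.6 ± 1.67, and only Wee2 and Ccnb2 overlapped among these. Fbxo43 (26.9 ± 5.06) and Gpr3 (15.1 ± 4.58) came next, with overlapping ranges. Ccnb3, Cdc25b and Pde3a lay between 2.92 and 4.08 RPM per kb and overlapped. In CabZ Het GV oocytes the first 8 genes stood in the same order.

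Within the 2-cell groups the genes stood in a different order. Among CabZ Het 2-cell embryos Ccnb1 (448 ± 66.2 RPM per kb), Wee2 (190 ± 49.4), Cdk1 (103 ± 0.79) and Ccnb2 (41.0 ± 12.3) did not overlap with their neighbours, and after them came Gpr3, Fbxo43, Ccnb3, Mos (1.65 ± 2.07) and Cdc25b, each overlapping with the next, and Pde3a was lowest without overlap. In CabZ KO 2-cell embryos Wee2 (326 ± 19.1) stood above Ccnb1 (138 ± 24.6) without overlap, the only group of the 8 in which Ccnb1 was not the highest. In GFP 2-cell embryos Cdk1 was at 5.52 ± 0.42 RPM per kb, overlapping with Fbxo43 at 7.23 ± 1.52. These levels stand in separately normalised tables, and differences between them were not tested.

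Among the cyclins and their kinase, Ccnb1 fell in both ZH KO oocytes and CabZ KO 2-cell embryos, Ccnb3 fell in all 3 knockout comparisons and Cdk1 fell in CabZ KO 2-cell embryos. Ccnb2 was past the test in none. Ccnb1 (GRCm38 chr13:100778650-100786570, minus strand) encodes cyclin B1, the main cyclin partner of Cdk1. Its 4 ZH Het libraries held 1354, 1523, 1756 and 1425 RPM and the 4 ZH KO libraries 664, 935, 866 and 805 RPM. Every KO library lay below every Het library (log2 fold change -0.89, SE 0.17, adjusted p = 0.00166). CabZ GV oocytes held 1866, 1861, 1999 and 1766 RPM in Het and 2066, 2084, 1905 and 2143 RPM in KO. Those ranges overlapped and the difference was not past the test (log2 0.13, adjusted p = 0.595). In CabZ 2-cell embryos the Het libraries held 1142, 1127, 1296 and 896 RPM and the KO libraries 378, 259, 397 and 337 RPM. All KO libraries were below all Het libraries (log2 -1.71, SE 0.27, adjusted p = 0.00112; log2 -1.08 with the deposited scaling). GFP embryos held 1242, 1324, 1742 and 1795 RPM, and the embryos labelled Zscan4 OE held 1306, 1407 and 1444 RPM, within the GFP range (adjusted p = 0.824).

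Part of the Ccnb1 signal could not be assigned to the gene with certainty, since the processed pseudogene Ccnb1-ps was listed at 40.4 to 60.9% of the RPM of Ccnb1 in every library, and how reads shared by both were counted is not stated. Ccnb1-ps moved with Ccnb1, from 688 to 770 RPM in ZH Het to 358 to 477 in ZH KO (adjusted p = 0.00161) and from 526 to 789 RPM in CabZ Het to 140 to 221 in CabZ KO 2-cell embryos (adjusted p = 0.000801). With both summed, an alternative chosen after the data were seen, the log2 fold changes were -0.87, 0.14, -1.77 and -0.12 in the ZH GV, CabZ GV, CabZ 2-cell and injected comparisons.

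Ccnb2 (chr9:70407692-70421547, minus strand), cyclin B2, can stand in for cyclin B1 in oocytes. It was at 233, 238, 223 and 241 RPM in ZH Het and at 214, 225, 443 and 232 RPM in ZH KO oocytes. The third KO library stood apart, and the ranges overlapped (log2 0.18, adjusted p = 0.533; -0.07 without that library, adjusted p = 0.720, with a range over all alternatives of 0.193 to 0.720). Levels were 242 to 319.5 RPM and 294 to 333 RPM in CabZ Het and KO GV oocytes (adjusted p = 0.526), and 36.2, 79.9, 70.2 and 64.6 RPM and 54.9, 41.2, 44.9 and 92.3 RPM in CabZ Het and KO 2-cell embryos (adjusted p = 0.811). Ccnb2 was thus not past the test in either comparison in which Ccnb1 fell. In CabZ 2-cell embryos the processed pseudogene Ccnb2-ps was listed at 7.52 to 55.5% of the RPM of Ccnb2. Part of the Ccnb2 signal there could not be assigned with certainty. In injected embryos Ccnb2 was at 60.0 to 128 RPM with GFP and 42.5 to 88.1 RPM with the Zscan4 OE label (adjusted p = 0.478).

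Ccnb3 (chrX:6979652-7041619, minus strand), cyclin B3, is needed for oocytes to leave metaphase of the first division. ZH Het libraries held 19.3, 20.3, 21.1 and 13.8 RPM and ZH KO libraries 13.9, 8.54, 5.05 and 8.14 RPM. The first KO library lay just above the lowest Het library and the others below all Het libraries (log2 -1.04, SE 0.26, adjusted p = 0.00697). CabZ Het GV oocytes held 25.7, 22.4, 31.0 and 25.2 RPM, and CabZ KO 20.6, 17.4, 15.4 and 14.7 RPM. These groups did not overlap (log2 -0.59, SE 0.16, adjusted p = 0.0336), although the call was lost in 8 of 16 alternatives, including the leaving out of 6 of the 8 libraries one at a time (adjusted p 0.0183 to 0.114 over the alternatives). In 2-cell embryos the Het libraries held 7.29, 12.2, 22.9 and 13 RPM and the KO libraries 2.05, 0.959, 1.11 and 2.41 RPM, the latter from 6 to 14 reads each. All KO libraries were below all Het libraries (log2 -2.43, SE 0.37, adjusted p = 0.000875; log2 -1.45 with a pseudocount of 5 RPM). Injected embryos held 1.38 to 5.62 RPM with GFP and 3.05 to 5.01 RPM with the Zscan4 OE label (adjusted p = 0.767).

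Cdk1 (chr10:69335146-69352938, minus strand), the kinase itself, had its only call in the 2-cell embryos. ZH Het oocytes held 144, 147, 158 and 158 RPM and ZH KO oocytes 258, 191, 172 and 212 RPM. All KO libraries lay above all Het libraries, the opposite side to Ccnb1, but the difference was just short of the test (log2 0.44, SE 0.17, adjusted p = 0.0503), and in 9 of 17 alternatives it was past it (adjusted p 0.0179 to 0.129). In CabZ GV oocytes Het held 257, 271, 229 and 246 RPM and KO 230.4, 243, 271 and 261 RPM, which overlapped throughout (log2 0.00, adjusted p = 0.99). In CabZ 2-cell embryos the 4 Het libraries held 453, 446, 450.1 and 454 RPM, with an SD of 3.47 RPM, and the KO libraries 112, 111, 136 and 50.4 RPM. The fall was 4.65-fold (log2 -2.22, SE 0.34, adjusted p = 0.000891), with log2 -1.59 under the scaling of the deposited values. The injected embryos, in a separately normalised table, held 24.7, 23.2, 26.5 and 22.3 RPM with GFP and 26.8, 24.9 and 34.8 RPM with the Zscan4 OE label (adjusted p = 0.628).

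The start regions of Ccnb1, Ccnb2 and Cdk1 are shown because these genes belong to a cell-cycle group whose promoters are known for CCAAT boxes and a CHR element, and because ATAC-seq peaks at them are described further on. RefSeq sequences of GRCm38.p6, from 250 bases before to 50 after the RefSeq start, were available for 7 of the 10 genes. They lie at chr13:100786437-100786736 (Ccnb1), chr9:70421505-70421804 (Ccnb2) and chr10:69352863-69353162 (Cdk1), all on the minus strand. Capitals mark CCAAT or its reverse complement ATTGG and TTTGAA or its reverse complement TTCAAA, the only motifs searched, on both strands. No match overlapped another.
Ccnb1: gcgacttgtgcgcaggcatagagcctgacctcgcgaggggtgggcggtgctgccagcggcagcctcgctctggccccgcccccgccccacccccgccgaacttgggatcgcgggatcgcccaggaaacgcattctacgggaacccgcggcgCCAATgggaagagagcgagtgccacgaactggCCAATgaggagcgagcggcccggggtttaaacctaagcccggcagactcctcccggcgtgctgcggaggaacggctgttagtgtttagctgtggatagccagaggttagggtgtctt
Ccnb2: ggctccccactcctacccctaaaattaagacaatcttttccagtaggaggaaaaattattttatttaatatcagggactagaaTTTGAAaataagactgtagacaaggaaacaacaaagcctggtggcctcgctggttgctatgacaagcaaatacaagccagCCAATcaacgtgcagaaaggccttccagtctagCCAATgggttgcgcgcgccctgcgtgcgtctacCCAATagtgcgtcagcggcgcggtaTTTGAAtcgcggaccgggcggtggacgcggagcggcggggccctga
Cdk1: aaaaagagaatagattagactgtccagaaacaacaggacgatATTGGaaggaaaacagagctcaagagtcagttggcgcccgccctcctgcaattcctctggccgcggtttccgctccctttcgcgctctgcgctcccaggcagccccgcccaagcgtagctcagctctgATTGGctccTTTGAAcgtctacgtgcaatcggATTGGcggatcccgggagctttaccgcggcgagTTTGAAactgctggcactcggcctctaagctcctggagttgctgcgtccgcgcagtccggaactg

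Ccnb2 and Cdk1 each held 3 CCAAT and 2 TTTGAA matches, and Ccnb1 held 2 CCAAT matches, whose first bases lie at -99 and -67 counted from the RefSeq start as 0, and no TTTGAA. Among 32851 RefSeq promoters of the same length, 37.4% held CCAAT, 17.9% TTTGAA and 6.95% both. Wee2 held 2 CCAAT matches, Cdc25b and Gpr3 held 1 each, and Ccnb3 held neither motif. Ccnb2 and Cdk1 shared both motifs, and of the pair only Cdk1 was past the test in CabZ 2-cell embryos. Other forms of the CHR element were not searched, so a region without TTTGAA is not thereby shown to lack one. A match is a run of letters and not a measured binding site.

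**Figure D2:**
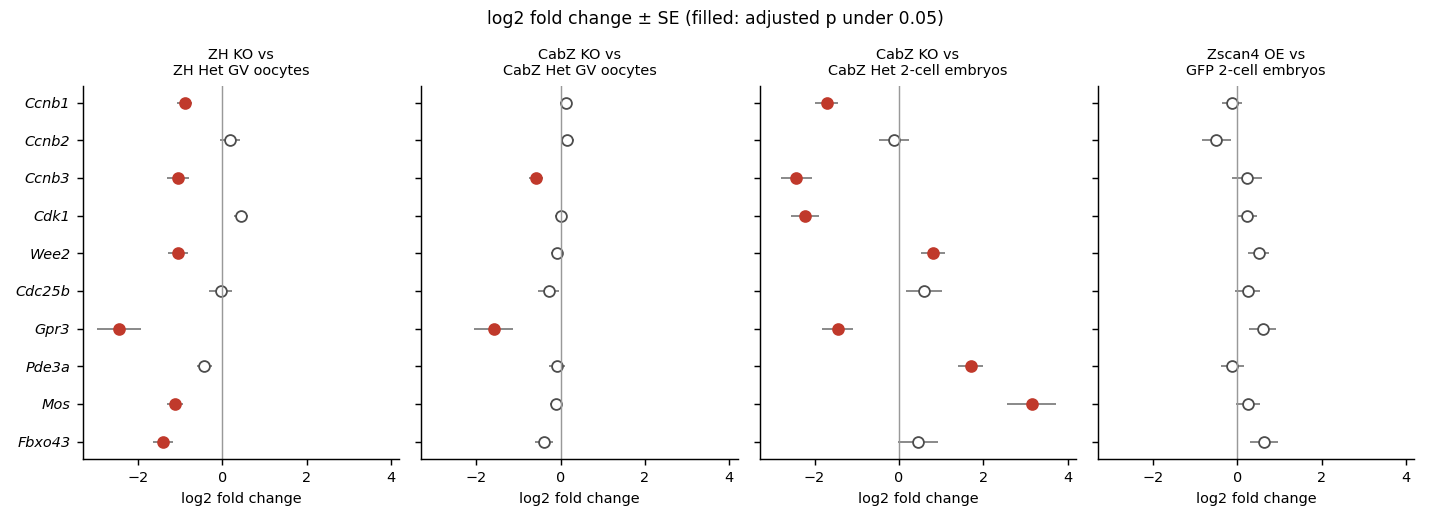
log2 fold change (horizontal axis, point) with its SE (line) of the 10 genes in the 4 comparisons, filled where the adjusted p was under 0.05. In ZH GV oocytes the 6 filled points lie between -2.45 and -0.89, and in CabZ 2-cell embryos they lie on both sides, from -2.43 for Ccnb3 to 3.15 for Mos.

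Of the kinase and phosphatase that set Cdk1 activity, Wee2 fell in ZH KO oocytes and rose in CabZ KO 2-cell embryos, and Cdc25b was past the test nowhere. Wee2 (chr6:40439088-40466813, plus strand) held 610.0, 713, 529 and 444 RPM in ZH Het and 224, 322, 376 and 204 RPM in ZH KO libraries. The groups did not overlap (log2 -1.05, SE 0.24, adjusted p = 0.00384). In CabZ GV oocytes Het held 509, 622, 617 and 524 RPM and KO 555, 577, 473 and 530.1 RPM, with overlapping ranges (log2 -0.09, adjusted p = 0.762). CabZ Het 2-cell embryos held 652, 462, 396 and 688 RPM, and CabZ KO 978, 984, 865 and 929 RPM. All KO libraries were above all Het libraries (log2 0.81, SE 0.28, adjusted p = 0.0378; log2 1.44 with the deposited scaling). The call was lost in 7 of 17 alternatives, 6 of them the leaving out of 1 library (Het 2 or 3, or any KO library), with adjusted p from 0.00271 to 0.101 over all of them. GFP embryos held 626, 612, 708 and 646 RPM, and the embryos labelled Zscan4 OE held 772, 1231 and 821 RPM. These ranges did not overlap either, but the difference was not past the test (log2 0.51, SE 0.25, unadjusted p = 0.0627, adjusted p = 0.329 by limma).

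The Wee2 start region (GRCm38.p6 chr6:40442613-40442912, plus strand, RefSeq) is shown because Wee2 was the only one of the 10 genes with an ATAC-seq peak in every library. The RefSeq start is that of the principal GENCODE transcript, which begins downstream of the gene's first annotated base, and the ATAC-seq windows were set on it. Peaks reached into the printed bases in 6 of 6 libraries, with the summit inside them in 2. Capitals are as above, and the CCAAT matches begin at -160 and -2.
Wee2: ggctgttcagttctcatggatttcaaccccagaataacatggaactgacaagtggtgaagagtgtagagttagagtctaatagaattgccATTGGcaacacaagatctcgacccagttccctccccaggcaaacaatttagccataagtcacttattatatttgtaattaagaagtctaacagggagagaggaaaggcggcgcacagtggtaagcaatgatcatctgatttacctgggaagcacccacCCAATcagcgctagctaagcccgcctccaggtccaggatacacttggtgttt

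Cdc25b (chr2:131186949-131198497, plus strand) was low at both stages. It held 12.9, 8.65, 9.89 and 8.31 RPM in ZH Het and 6.16, 15.3, 11.8 and 7.26 RPM in ZH KO oocytes, with the KO libraries on both sides of the Het range (log2 -0.04, adjusted p = 0.922). CabZ Het GV oocytes held 9.94 to 13.3 RPM and KO 5.05 to 14.0 RPM (adjusted p = 0.51). At the 2-cell stage CabZ Het held 2.14, 4.91, 2.51 and 9.95 RPM, CabZ KO 5.48, 8.62, 9.16 and 4.81 RPM (adjusted p = 0.272), and injected embryos 7.12 to 10.8 RPM with GFP and 7.30 to 15.6 RPM with the Zscan4 OE label (adjusted p = 0.691). A share of 2.93% of its exon bases is shared with Spef1 on the other strand, and the libraries do not keep strand.

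In the cyclic AMP branch, Gpr3 fell in all 3 knockout comparisons, whereas Pde3a rose in CabZ KO 2-cell embryos and was past the test in neither line of GV oocytes. Gpr3 (chr4:133209340-133212536, minus strand) held 40.4, 51.2, 37.5 and 23.2 RPM in ZH Het and 1.60, 16.9, 10.5 and 3.23 RPM in ZH KO libraries, the lowest of which came from 25 reads. The groups did not overlap, and the fall was 5.46-fold on the scale of RPM + 1 (log2 -2.45, SE 0.52, adjusted p = 0.00279; log2 -1.84 with a pseudocount of 5 RPM), the largest of the 10 genes in that comparison. CabZ Het GV oocytes held 41.3, 76.0, 17.6 and 19.1 RPM and CabZ KO 17.7, 15.6, 6.05 and 5.81 RPM. Het libraries differed widely among themselves, and the highest KO library lay just above the lowest Het library (log2 -1.59, SE 0.47, adjusted p = 0.0416). That call was lost in 7 of 17 alternatives, among them the leaving out of Het library 1 or 2 or KO library 3 or 4 (adjusted p 0.00121 to 0.107).

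CabZ Het 2-cell embryos held 10.2, 13.2, 7.89 and 13.3 RPM of Gpr3 and CabZ KO 6.33, 1.44, 3.79 and 3.27 RPM, the latter from 9 to 37 reads. The groups did not overlap (log2 -1.45, SE 0.36, adjusted p = 0.00941). With the libraries scaled as in the deposited values, which moved the median of all genes from 0.18 to 0.71, the value was -0.92 and the adjusted p 0.0719 (0.00508 to 0.0719 over all alternatives). Injected embryos held 1.65 to 4.90 RPM with GFP and 3.35 to 6.38 RPM with the Zscan4 OE label (adjusted p = 0.372).

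The span of Gpr3 overlaps that of Cd164l2, a more abundant gene on the other strand, although the annotated exons share 0 of 2636 bases. Cd164l2 fell from 301 to 409 RPM in ZH Het to 112 to 148 in ZH KO (log2 -1.47, adjusted p = 8.05e-05) and from 488 to 593 RPM to 329 to 408 in CabZ GV oocytes (log2 -0.55, adjusted p = 0.0262), but rose in CabZ KO 2-cell embryos (8.80 to 23.4 against 39.2 to 102 RPM, log2 1.65, adjusted p = 0.00882). Its part in the Gpr3 values was not tested, and at the 2-cell stage both genes moved in opposite directions.

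Pde3a (chr6:141249269-141507448, plus strand), which spans 258180 bp, held 32.4, 29.2, 42.6 and 39.4 RPM in ZH Het and 29.1, 25.1, 27.5 and 23.6 RPM in ZH KO oocytes. The highest KO library, at 29.1 RPM, was just below the lowest Het library, at 29.2 RPM, and the difference was not past the test (log2 -0.42, SE 0.18, adjusted p = 0.0636; past it in 4 of 16 alternatives, with adjusted p from 0.0340 to 0.34). CabZ GV oocytes held 47.4 to 63.8 RPM in Het and 43.9 to 72.6 RPM in KO (adjusted p = 0.807). At the 2-cell stage CabZ Het held 6.26, 7, 3.36 and 5.08 RPM and CabZ KO 18.8, 18.6, 15.7 and 25.9 RPM. Every KO library was above every Het library (log2 1.70, SE 0.30, adjusted p = 0.00169). GFP embryos (4.95 to 10.1 RPM) and the embryos labelled Zscan4 OE (5.16 to 7.68 RPM) overlapped (adjusted p = 0.852). A share of 6.02% of the exon bases of Pde3a is shared with Gm28523 on the other strand. In CabZ 2-cell embryos Gm28523 was listed at 0 to 38.2% of the RPM of Pde3a in Het and 2.02 to 13.3% in KO. Its part in the Pde3a values was not tested.

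Both genes that hold the egg at metaphase of the second division fell in ZH KO oocytes, and Mos rose in CabZ KO 2-cell embryos. Mos (chr4:3870657-3872105, minus strand), a single-exon kinase gene, held 666, 623, 535 and 562 RPM in ZH Het and 204, 295, 308 and 299.8 RPM in ZH KO libraries. The first KO library was lowest, and no KO library reached the Het range (log2 -1.12, SE 0.19, adjusted p = 0.000602; -0.98 without that library, adjusted p = 0.00101, and 0.000218 to 0.00399 over all alternatives). CabZ GV oocytes held 853, 957, 949.9 and 852 RPM in Het and 822, 849, 798 and 898 RPM in KO, with overlapping ranges (log2 -0.10, adjusted p = 0.694). In CabZ 2-cell embryos Mos was close to the limit of detection in Het, at 1.76, 6.79, 0.626 and 0.364 RPM from 3 to 54 reads, and at 41.6, 9.90, 21.6 and 27.3 RPM in KO. The groups did not overlap (log2 3.15, SE 0.58, adjusted p = 0.0021), and with values so low in Het the log2 fold change depended on the pseudocount, at 3.95 with 0.1 and 1.99 with 5 RPM. Injected embryos held 3.64 to 6.93 RPM with GFP and 4.46 to 8.5 RPM with the Zscan4 OE label (adjusted p = 0.685).

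Fbxo43 (chr15:36150060-36164884, minus strand) held 123, 124, 107 and 80.1 RPM in ZH Het and 29.6, 49.7, 53.7 and 31.1 RPM in ZH KO oocytes. All KO libraries lay below all Het libraries (log2 -1.41, SE 0.24, adjusted p = 0.000748). CabZ Het GV oocytes held 71.9, 82.1, 72.6 and 65.4 RPM and KO 69.4, 73.4, 38.3 and 46.0 RPM. KO libraries 3 and 4 were below the Het range and 1 and 2 within it (log2 -0.40, SE 0.21, adjusted p = 0.252). In 2-cell embryos CabZ Het held 16.2, 6.79, 4.51 and 23.9 RPM and KO 9.58, 16.6, 15.6 and 19.6 RPM (adjusted p = 0.465), and GFP embryos held 29.7, 22.9, 37.4 and 26.8 RPM beside 29.1, 80.1 and 38.9 RPM in the embryos labelled Zscan4 OE (adjusted p = 0.373). Neither comparison separated the groups.

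Other genes stood beside these changes. Markers of the 2-cell embryo, among them Zscan4d, summed to 109 to 160 RPM in ZH Het and 593 to 904 RPM in ZH KO oocytes. There 4 of 4 tested were higher (27.4% of all genes), leaving out Gm8300 and Usp17lc, which passed the filter through KO alone. In CabZ GV oocytes these markers summed to 207 to 227 RPM in Het and 378 to 482 RPM in KO, with 4 of 4 higher (9.31% of all genes). Of the 10 oocyte markers 3 were lower and 1 higher in ZH KO, where 26.3% and 27.4% of all genes were. In CabZ KO 2-cell embryos 7 of the 10 markers were higher and 0 lower (25.5% and 19.2% of all genes). Mos, Pde3a and Wee2 rose there as well. Reads listed in the table made up 74.2 to 74.7% of the total to which the authors scaled each library in ZH Het and 66.0 to 68.2% in ZH KO libraries. With libraries scaled to the reads in the table, the median over all genes tested was 0.12 in place of -0.04, calls over all genes went from 3754 higher and 3605 lower to 4756 higher and 2913 lower, and the 6 regulators remained lower while Cdk1 was higher. In CabZ 2-cell embryos the scaling of the deposited values gave 6986 higher and 1613 lower calls in place of 4473 and 3363, and 3 of the regulators higher and 3 lower. The part of these differences in the results was not tested.

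**Figure D3:**
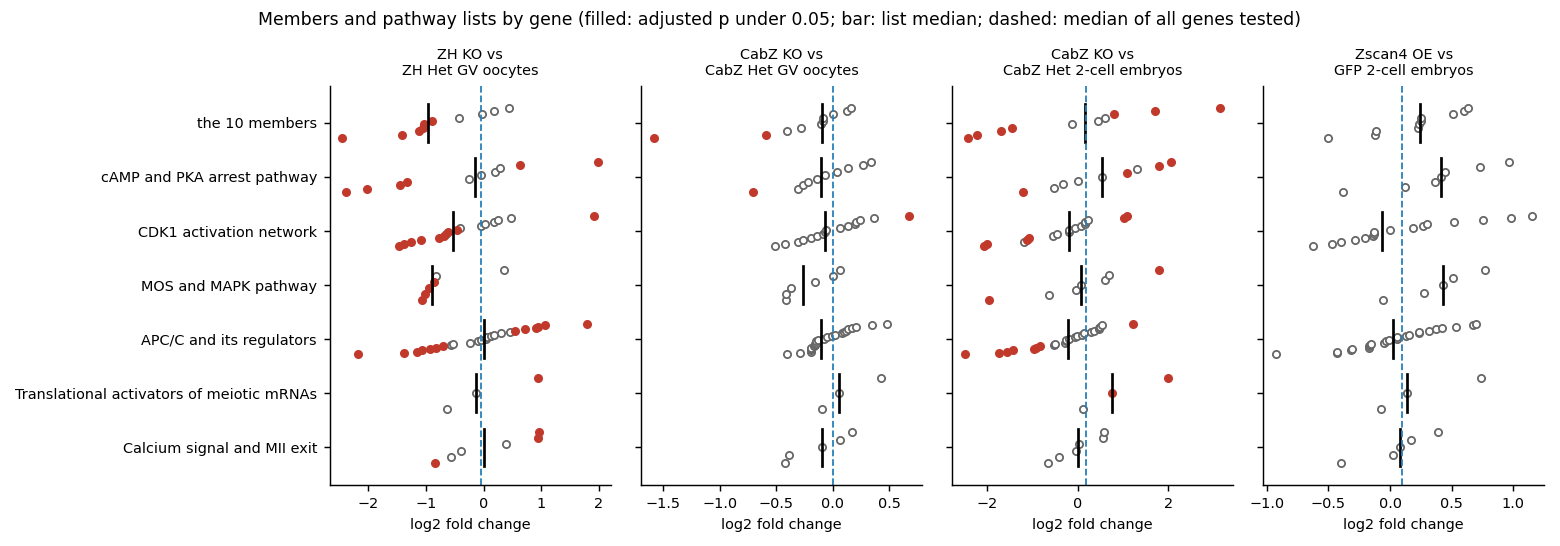
log2 fold changes of single genes (points, filled where the adjusted p was under 0.05) for the 10 regulators and 6 lists of related genes in the 4 comparisons, with list medians as bars and the median of all genes tested as a dashed line. The MOS and MAPK list has its median at -0.90 in ZH GV oocytes, and no point is filled in the injected embryos.

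Around the 10 regulators, 69 other genes of the same pathways were followed in 6 lists. In ZH KO oocytes 12 of 65 tested were higher and 24 lower (median log2 -0.25, all genes -0.04), where 27.4% and 26.3% of all genes were, in CabZ KO GV oocytes 1 of 64 was higher and 1 lower (median -0.08, all genes -0.00; 9.31% and 5.55% of all genes), and in CabZ KO 2-cell embryos 9 of 65 were higher and 13 lower (median -0.03, all genes 0.18; 25.5% and 19.2% of all genes). These shares are not tested against each other, and 2 of the 12 passed the filter through ZH KO alone. In the embryos labelled Zscan4 OE, 0 of 60 were past the test, where 0.0606% of all genes were higher and 0.675% lower.

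The cyclic AMP and protein kinase A list had 2 of 10 genes higher and 4 lower in ZH KO (27.4% and 26.3% of all genes). Pde3b, the second phosphodiesterase of this class, fell from 18.0 ± 2.36 to 2.68 ± 0.70 RPM (SD, n = 4 each; log2 -2.38, adjusted p = 5.36e-06). Gja4, the connexin of the junctions between oocyte and granulosa cells, fell from 435 ± 74.1 to 113 ± 52.2 RPM, and the kinase subunits Prkar2a (log2 -1.46) and Prkaca (-1.33) fell too. Adcy3, an adenylyl cyclase, is 1 of the 2 counted as higher, but at 0.20 ± 0.15 RPM in Het and 4.19 ± 2.58 RPM in KO it passed the filter on low values through the KO libraries alone, which favours a call in this direction. Pde3b fell in CabZ KO GV oocytes as well, from 17.3 ± 5.31 to 9.92 ± 1.11 RPM with overlapping ranges (adjusted p = 0.0447), the only gene of the list past the test there. In CabZ KO 2-cell embryos Prkar2b rose from 88.7 ± 18.4 to 369 ± 35.3 RPM and Gnas, the Gs subunit through which Gpr3 signals, from 36.4 ± 12.1 to 125 ± 20.5 RPM, Prkar2a rose (log2 1.10) and Prkar1a fell (log2 -1.22).

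In the list of Cdk1 activators and inhibitors, 1 of 16 genes was higher and 8 lower in ZH KO (27.4% and 26.3% of all genes). Cks2, a Cdk1-binding subunit needed for the first meiotic division, rose from 202 ± 54.7 to 759 ± 159 RPM (log2 1.91, adjusted p = 8.53e-05). Plk1 fell from 228 ± 44.4 to 92.4 ± 56.3 RPM, the phosphatase Cdc25a fell from 33.5 ± 3.54 to 14.0 ± 4.57 RPM, and Ensa, an inhibitor of PP2A (log2 -1.08), and Ppp2r1a, the PP2A scaffold (log2 -1.38), fell as well. In CabZ KO GV oocytes Wee1, the somatic relative of Wee2, rose from 8.10 ± 1.39 to 13.4 ± 0.94 RPM (adjusted p = 0.0152). In CabZ KO 2-cell embryos Cdc25c fell from 59.8 ± 17.3 to 14.1 ± 6.81 RPM, the kinase Aurka from 154 ± 56.0 to 35.8 ± 6.01 RPM, Ccna2 (cyclin A2) from 345 ± 87.0 to 154 ± 16.8 RPM and the 14-3-3 protein gene Ywhah from 130 ± 9.94 to 63.0 ± 15.7 RPM, whereas Cks2 rose from 1618 ± 401 to 3482 ± 1084 RPM (adjusted p = 0.0206).

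Downstream of Mos, 4 of 6 genes of the MAPK list were lower in ZH KO and 0 higher, beside 26.3% and 27.4% of all genes. Map2k2 (MEK2) was at 16.9 ± 4.63 RPM in ZH Het and 8.09 ± 4.97 RPM in ZH KO. At the 2-cell stage Mapk3 (ERK1) rose from 52.9 ± 11 to 184 ± 31.7 RPM and Map2k2 fell from 12.1 ± 4.22 to 2.92 ± 3.00 RPM in CabZ KO. The APC/C list had 6 of 24 genes higher and 7 lower in ZH KO, near the 27.4% and 26.3% of all genes. Bub1b, a spindle checkpoint kinase, fell from 581 ± 74.0 to 134 ± 58.3 RPM (log2 -2.18, adjusted p = 6.67e-05), the checkpoint kinase Ttk, the coactivator Cdc20 and the subunit Anapc5 fell too (log2 -1.15, -1.06 and -1.38), and the subunit Cdc16 rose from 38.1 ± 8.62 to 136 ± 40.6 RPM. In CabZ KO 2-cell embryos 1 of 24 was higher and 7 lower (25.5% and 19.2% of all genes). Anapc7 fell from 39.4 ± 18.9 to 6.22 ± 3.33 RPM and the ubiquitin-conjugating enzyme Ube2c from 451 ± 74.7 to 134 ± 23.3 RPM. Bub3 fell from 158 ± 28.4 to 58.4 ± 11.3 RPM, Anapc4 fell too (log2 -1.56), and Cdc16 rose (log2 1.22).

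Dazl, an RNA-binding protein that activates translation of stored meiotic mRNAs, rose from 529 ± 68.6 to 1049 ± 323 RPM in ZH KO oocytes (log2 0.95, adjusted p = 0.00531) and from 146 ± 74.2 to 535 ± 65.1 RPM in CabZ KO 2-cell embryos (log2 1.99, adjusted p = 0.0021). Of the calcium list, Camk2g, the kinase isoform that carries the activation signal in mouse eggs, fell in ZH KO (30.6 ± 6.17 to 16.6 ± 2.75 RPM, adjusted p = 0.00438), while Ppp3ca (calcineurin) rose by 0.95 on the log2 scale. Camk2d, at 0.41 ± 0.24 RPM in Het, passed the filter through the KO libraries alone. None of the 6 genes of the calcium list tested in CabZ 2-cell embryos was past the test (25.5% of all genes were higher and 19.2% lower).

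Ratios between genes of the set depend little on how libraries are scaled. They were compared for 4 pairs of genes in the 4 tables, as log2 of (RPM + 1) with two-sided exact permutation tests. None of the 16 was past an adjusted p of 0.05, and the smallest was 0.114. With the adjustment over 16 tests, passing needed most ratios at their smallest possible p together, so no conclusion is drawn from the absence of calls. The ratio of Ccnb1 to Ccnb2 lay below the Het range in all 4 ZH KO libraries (2.53 to 2.97 in Het, 0.96 to 2.05 in KO, difference -1.07) and in all 4 CabZ KO 2-cell libraries (3.77 to 4.94 and 1.86 to 3.12, difference -1.59). The exact p was 0.0286 in each, the smallest that 4 against 4 libraries can give. Reads listed under the pseudogenes Ccnb1-ps and Ccnb2-ps are not part of this ratio. The ratio of Cdc25b to Wee2 was higher in every ZH KO library (difference 1.01, exact p = 0.0286), and that of Pde3a to Gpr3 in every CabZ KO 2-cell library (-1.24 to -0.62 in Het, 1.43 to 3.01 in KO, difference 3.15, exact p = 0.0286). The ratio of Mos to Fbxo43 overlapped between groups in every table. In the injected embryos, where 4 against 3 libraries cannot go below 0.0571, the exact p was 0.286 to 0.457.

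**Figure D4:**
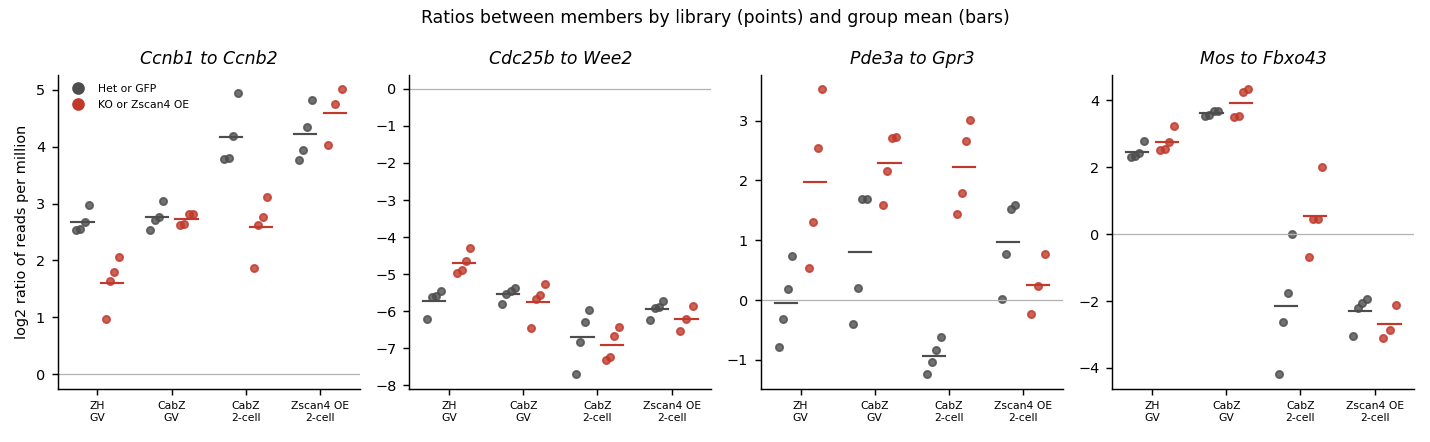
log2 ratios of RPM for 4 pairs of genes in each library, with grey points for Het or GFP, red points for KO or Zscan4 OE and bars for group means. The ratio of Pde3a to Gpr3 lies below 0 in all 4 CabZ Het 2-cell libraries and above 1.4 in all 4 KO libraries.

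ATAC-seq peaks within 500 bp of an annotated start of the 10 genes were read from the peak lists of the CabZ GV oocyte libraries, where a fold enrichment is relative to the genome background. Wee2 had a peak in 3 of 3 Het and 3 of 3 KO libraries, with fold enrichments of 3.94 to 5.28. Ccnb1 had one in 2 Het and 3 KO libraries (4.50 to 6.56), Cdk1 in 2 Het and 1 KO (4.36 to 5.62), Fbxo43 in 2 and 1, and Ccnb2 and Cdc25b in 1 each. Pde3a had a peak in 3 Het and 0 KO libraries (4.10 to 5.46), Ccnb3 in 2 and 0, and Gpr3 and Mos in 1 and 0. A peak was counted where it touched the window, so its summit could lie outside. The Pde3a summits lay 751, 707 and 1516 bp from the start, and some summits of other genes lay outside the window too. The counts moved with the number of peaks: Het libraries A, B and C had 43399, 67074 and 111327 peaks and 2, 7 and 9 of the 10 genes with one, and KO libraries had 46070, 19160 and 29600 peaks and 5, 2 and 3 genes. Over all 18876 genes, 12.2, 24.1 and 42.3% had a peak in the Het libraries and 18.4, 5.97 and 7.91% in the KO libraries. No test was made, since 3 against 3 libraries cannot go below an exact p of 0.1 and the number of reads behind each list is not known.

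**Figure D5:**
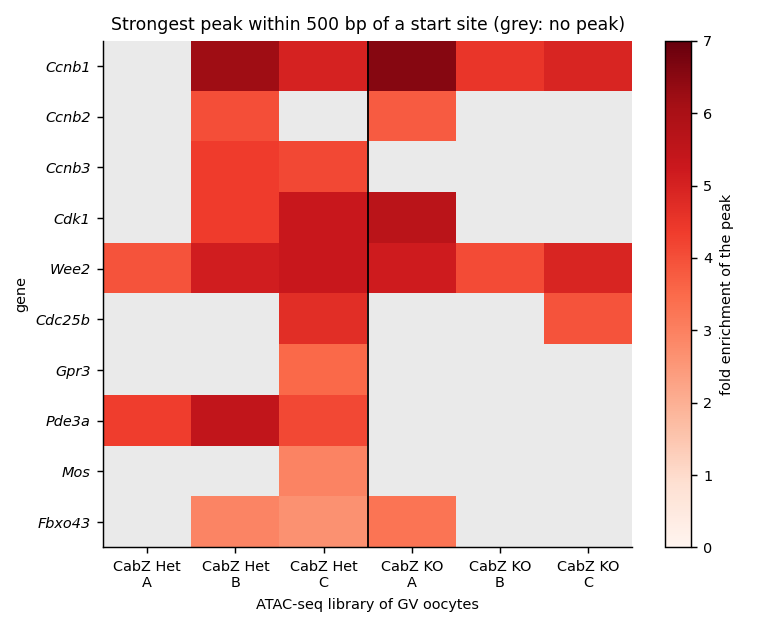
Fold enrichment (colour scale) of the strongest ATAC-seq peak touching the window within 500 bp of a start of each gene (vertical axis). Columns are the 3 CabZ Het and 3 CabZ KO libraries of GV oocytes (horizontal axis), with grey for no peak. Wee2 is coloured in all 6 columns and Pde3a in the 3 Het columns alone.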

How the data were processed

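RNA-seq values of 31 libraries in 4 tables and ATAC-seq peak lists of 6 libraries were used, with groups read from the labels of the samples. Per the methods and the submitters' processing notes, the authors used TrimGalore for trimming, STAR 2.5.3a for alignment to GRCm38/mm10 and Partek Flow for quantification. Libraries were Smart-seq2 v4 cDNA with Nextera XT, which keeps no strand, and the treatment of reads that match more than 1 gene is not given in the sources used here. The ZH and Zscan4 OE tables were deposited as FPKM over the gene span, introns included, to which the authors had added 0.01 or 0.001. The 2 CabZ tables were deposited as score values that the authors had divided by the gene span a second time and scaled per library, plus 0.01, as read from the values. For ATAC-seq the authors aligned reads with Bowtie2 2.3 and called peaks per library with MACS2; the deposited fold enrichment ratio, -log10 p, -log10 q and score of each peak are MACS2's. No table column was without a sample (0 left out).

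The added constant was subtracted, and values were multiplied by the gene span to give RPM, in the CabZ tables after a further multiplication and rescaling to each library's reads in the table; the fit planned for FPKM was kept and the CabZ unit handled in this way. RPM in the ZH and Zscan4 OE tables thus keeps the authors' library totals, while in the CabZ tables it is relative to the reads in the table. Read numbers were recovered from the smallest step of each library; between 87.8 and 90.9% of low values were within 0.1 of a whole number, so no count test was run, and read numbers given are rounded. Their precision covers counting error alone. The test was limma 3.58.1 under R 4.3.3 on genes whose mean reached 1 RPM (lmFit and eBayes on log2(RPM + 1), without trend or replicate block), with Benjamini-Hochberg adjustment over all genes of a table, and the script was tested on simulated data. Other steps used Python 3.11.15, pandas 2.3.3 and scipy 1.17.1. Spliced lengths and starts came from GENCODE M21, whose coordinates matched those of 89.9 to 96.1% of listed genes.

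The 10 genes, the lists of related genes and the markers were chosen with earlier results of these data known. All 10 are named throughout; of the lists, the DE genes, and failing any those past the test, at most 5 per list and comparison by size of the log2 fold change. The values of 1 gene that this rule would name are not reported here. Alternatives changed the pseudocount, filter, scaling, variance model, replicate block, peak threshold, window and overlap, and left out each library in turn.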

Additional observations from a re-analysis of the deposited data

Results flagged for a closer look

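Within groups of 4 libraries, 70 sets of values (the 10 genes in 7 groups) were screened for a library far from the other 3, and 2 stood out, where chance gives about 1 in 20 (5 in 100). Ccnb2 was at 443 RPM in ZH KO replicate 3, while the other 3 ZH KO libraries held 214 to 232 RPM. The gap took up 0.919 of the range of the group, and the log2 fold change of Ccnb2 was 0.18 with this library and -0.07 without it, neither past the test. Mos was at 204 RPM in ZH KO replicate 1, while the other 3 held 295 to 308 RPM, a gap of 0.868 of the range. Without it Mos was still lower in ZH KO (log2 -0.98, adjusted p = 0.00101 by limma). Whether anything in these libraries other than chance set them apart was not tested.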

How the results depend on the processing

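Of 654 values of single genes under an alternative, 618 kept their side of the test, 23 calls were lost, 13 were gained and 0 were reversed. In ZH GV oocytes 1 gene, Cdk1, was higher in place of 0 with a pseudocount of 5, no filter, a mean of at least 10 RPM, FPKM over the span, the same median in every library, an intensity trend or scaling to the reads in the table, and leaving out each library gave 0 to 1. Lower genes numbered 6 to 7 without single libraries. In CabZ GV oocytes 1 gene in place of 2 was lower with a pseudocount of 0.1, 0 with FPKM over the span (7 genes tested) and 0 with the deposited scaling, and 0 to 2 without single libraries. In CabZ 2-cell embryos 2 genes in place of 4 were lower with a mean of at least 10 RPM, where only 7 were tested. No ratio was past the test, which with all libraries needed most ratios at their smallest possible p together. Without 1 library of a knockout comparison the design cannot reach an adjusted p under 0.05. Summed over libraries, genes with an ATAC-seq peak numbered 18 in Het and 10 in KO, 6 and 1 with -log10 q of at least 5, 9 and 8 with the summit inside the window, and 19 and 17 within 1000 bp.

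Calls over all genes moved by over 1.5 times with a mean of at least 10 RPM (ZH 1549 higher; CabZ GV 658 and 471; CabZ 2-cell 2357 higher), with FPKM over the span (ZH 1485 and 1521; CabZ GV 520 and 363; CabZ 2-cell 1963 higher), with the deposited scaling (CabZ GV 495 lower; CabZ 2-cell 6986 and 1613) and without CabZ GV Het replicate 1 (476 lower). The 7 higher and 78 lower genes of the injected embryos became 0 and 16 with a pseudocount of 0.1, 3 and 42 with no filter, 2 and 43 with a mean of at least 10 RPM, 4 and 73 with FPKM over the span, 16 and 118 with a trend, and between 0 and 10 higher and 9 and 128 lower without single libraries. The cause of these changes was not tested, except that fewer genes were tested under stricter filters.

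Deviations of same-numbered libraries correlated at -0.343 to 0.313 in ZH and -0.071 to 0.117 in CabZ GV. They correlated at -0.049 to 0.071 in CabZ 2-cell and -0.124 to 0.058 in the injected comparison. Only number 2 in ZH, number 3 in CabZ 2-cell and letter A in the injected comparison had their own number as best match. So few libraries cannot tell whether the numbers pair the samples. With the replicate block 6 genes were lower in ZH GV oocytes, 1 in CabZ GV oocytes, 4 lower and 2 higher in CabZ 2-cell embryos and 0 in injected embryos, where calls over all genes fell to 0 and 3. Values under about 5 RPM, such as Mos in CabZ Het 2-cell and Ccnb3 in CabZ KO 2-cell embryos, rest on few reads, and ATAC-seq depth is not known.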

Other observations

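Within a genotype several of the 10 genes were low in the same libraries, a pattern chosen after the values were seen and not tested. In ZH KO GV oocytes, replicates 1 and 4 held the lowest levels of Gpr3 (1.60 and 3.23 RPM, against 16.9 and 10.5 in replicates 2 and 3), Fbxo43 (29.6 and 31.1 against 49.7 and 53.7) and Wee2 (224 and 204 against 322 and 376), as well as of Cdc25b (6.16 and 7.26 against 15.3 and 11.8). In CabZ KO GV oocytes, replicates 3 and 4 were lowest for Gpr3 (6.05 and 5.81 RPM against 17.7 and 15.6), Fbxo43 (38.3 and 46.0 against 69.4 and 73.4), Ccnb3 (15.4 and 14.7 against 20.6 and 17.4) and Pde3a (45.2 and 43.9 against 55.2 and 72.6). Ccnb1 was lowest in replicates 1 and 4 of ZH KO too (664 and 805 RPM against 935 and 866). It was not lowest in replicates 3 and 4 of CabZ KO GV oocytes. Mos and Ccnb2 were not divided in this way in either group, nor were Ccnb3 and Pde3a in ZH KO. Cdk1 went the other way in both groups. It was highest in replicates 1 and 4 of ZH KO (258 and 212 RPM against 191 and 172). In CabZ KO GV oocytes it was highest in replicates 3 and 4 (271 and 261 RPM against 230 and 243).

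Replicate 4 of the CabZ KO 2-cell embryos held the lowest Cdk1 (50.4 RPM against 111 to 136), and the lowest Hira, Cabin1 and Zscan4d as well (1.37, 7.56 and 181 RPM). Hira, the target of the other line, was 18.0 to 25.0 RPM in CabZ Het and 1.37 to 5.31 RPM in CabZ KO 2-cell embryos (log2 -2.26, adjusted p = 0.00106 by limma), and Cabin1 was 30.6 to 40.9 RPM in ZH Het and 7.57 to 12.1 RPM in ZH KO GV oocytes (log2 -1.65, adjusted p = 6.17e-05). The pseudogene Ccnb2-ps was at most 1.17 RPM in ZH GV oocytes but 4.85 to 30.5 RPM in CabZ 2-cell embryos, where it was 7.52 to 55.5% of the RPM of Ccnb2.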
